A study of Homo sapiens with 8 samples.

Results

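Semaphorins, ephrins, slits and netrins are cues that steer growing axons, and plexins, neuropilins, EPH receptors, robos, UNC5 proteins and DCC are the receptors that read them. These 62 genes were followed in the human embryonic stem cell line H9, a long-established line, on a soft and a stiff gel, before and after mesoderm induction. They were taken by symbol alone, as every single-symbol row of the named families among 36038 named symbols and unnamed loci; antisense names were not taken. The 62 symbols had 69 rows, and a symbol with several rows is given by the row with the highest summed FPKM.

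RNA was measured in 4 groups of 2 libraries each. H9 cells kept undifferentiated (day 0) were grown on gels of 400 Pa (soft) or 60 kPa (stiff). Cells induced towards mesoderm with bFgf, Activin, VEGF and BMP4 (day 3.5) were grown on the same 2 stiffnesses. All 4 groups come from 1 cell line kept in KSR-DMEM, with feeder-conditioned medium on the gels. The labels name no separate cultures behind the 2 libraries of a group, so p-values of the authors' comparison measure the spread between libraries, which may be technical. The tables give 1 FPKM (fragment count scaled to gene length and library size) per group, so no value below has an SD or a replicate count, and the read depth is unknown. Pairs of FPKM are given with the soft gel first. In bulk RNA, fewer cells of a type and less RNA per cell cannot be told apart.

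Outside the nervous system the same cues act on many moving or sorting cells. Class 3 semaphorins are secreted and signal through neuropilins paired with plexins, and neuropilins also bind VEGF. Ephrins are tethered to the cell surface and signal at cell contacts, A-type ephrins by a lipid anchor and B-type ephrins across the membrane. Slits signal through robos, and netrins through DCC and the UNC5 receptors. In the gastrulating embryo ephrin and semaphorin signals take part in boundary formation and vessel patterning.

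At day 3.5, SEMA3C, SEMA3D, NRP1, UNC5C and EFNA1 were called higher on the soft gel than on the stiff gel. SEMA5B was the member called the other way. Called means q below 0.05 in the authors' deposited table. These were 5 of 53 tested members (9.43%) on the soft side and 1 (1.89%) on the stiff side, beside 1.08% and 0.253% of all 18216 genes tested. At day 0 SEMA5B was the sole call among 49 tested members (2.04%), on the soft side, beside 0.0635% of 17311 genes, with 0 on the stiff side beside 0.0751%. Tested means tested by the authors and at 1 FPKM or more on a gel. SEMA3C and SEMA3D lie in the same semaphorin cluster. The stretch of 250 bases before the outermost annotated start of SEMA5B, SEMA3C and SEMA3D is shown because these 3 semaphorins include both directions of change and their stretches overlap no annotated exon in GENCODE 29. The sequences are from RefSeq on GRCh38.p14, whereas the expression tables use hg19, and were matched by symbol. They run 5′ to 3′ along the minus strand, on which all 3 genes lie, at chr3:123028606-123028855, chr7:80922390-80922639 and chr7:85187057-85187306. Capitals mark matches to a searched motif.
SEMA5B: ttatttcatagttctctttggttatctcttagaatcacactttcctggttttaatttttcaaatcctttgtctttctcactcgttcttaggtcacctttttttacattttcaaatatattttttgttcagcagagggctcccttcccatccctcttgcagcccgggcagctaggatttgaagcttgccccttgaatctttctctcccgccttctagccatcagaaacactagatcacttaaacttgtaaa
SEMA3C: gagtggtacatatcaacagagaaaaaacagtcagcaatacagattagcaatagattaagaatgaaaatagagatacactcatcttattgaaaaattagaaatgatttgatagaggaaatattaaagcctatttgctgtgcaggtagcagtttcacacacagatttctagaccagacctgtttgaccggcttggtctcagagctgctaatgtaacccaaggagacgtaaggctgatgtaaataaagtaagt
SEMA3D: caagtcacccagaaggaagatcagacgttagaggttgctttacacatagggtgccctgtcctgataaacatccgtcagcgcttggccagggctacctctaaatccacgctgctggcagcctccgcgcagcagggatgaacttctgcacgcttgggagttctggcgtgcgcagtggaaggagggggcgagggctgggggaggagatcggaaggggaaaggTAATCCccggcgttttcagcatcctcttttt

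The motifs, chosen after the expression results were known, were searched on both strands of the stretches before every annotated start. They were GGCGCC (bound by BMP-activated SMADs), TAATCC (OTX2), CTTTGAT (TCF/LEF) and CACCTG (SNAI2); the capitals in SEMA3D are the single match in the printed stretches. Promoters were found for 53 of the 62 symbols, 85 in all. TAATCC was in 7.06% of them against 5.62% of all 35116 promoters, and GGCGCC in 22.4% against 16.4%. CTTTGAT was in 3.53% against 2.26%, and CACCTG in 16.5% against 17.5%. SEMA3D holds TAATCC beginning 31 bases before its start. SEMA5B and SEMA3C have no match in the stretches printed. SEMA5B has 2 further annotated starts, 1 with TAATCC 199 bases before it and 1 with GGCGCC 172 bases before it; both stretches overlap exons of the gene and are not shown. The GC content of the printed stretches was 39.2% for SEMA5B, 36.4% for SEMA3C and 57.6% for SEMA3D. The median was 58.0% over all promoters and 65.2% over those of the members. The stretch before a further SEMA3C start had 77.6%, and those before the 2 further SEMA5B starts had 56.8% and 74.8%. The FPKM is not given by start, so it does not tell which start was used.

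Most members were expressed before induction. At least 1 FPKM was reached at day 0 by 46 of the 62 symbols on the soft gel and 45 on the stiff gel, and at day 3.5 by 51 and 52. The 42 members at 1 FPKM or more in all 4 groups included every class 6 semaphorin and the B plexins measured alone. The 7 members under 1 FPKM in every group measured were DCC, EPHA3, EPHA5, EPHA10, PLXNA4, ROBO4 and SEMA3G. ROBO4, an endothelial robo, was listed at 0 on 400 Pa on both days and at 0.0527 and 0.279 FPKM on 60 kPa. DCC, the attractive netrin receptor, lay between 0.175 and 0.594 FPKM. EPHB1, SLIT1, PLXNB3, EFNA3 and EFNA4 appear only in loci that merge several genes and cannot be split; the EFNA3 and EFNA4 locus had 12.05 (soft) and 12.6 (stiff) FPKM at day 0, then 16.7 and 17.9 after induction.

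**Figure D1:**
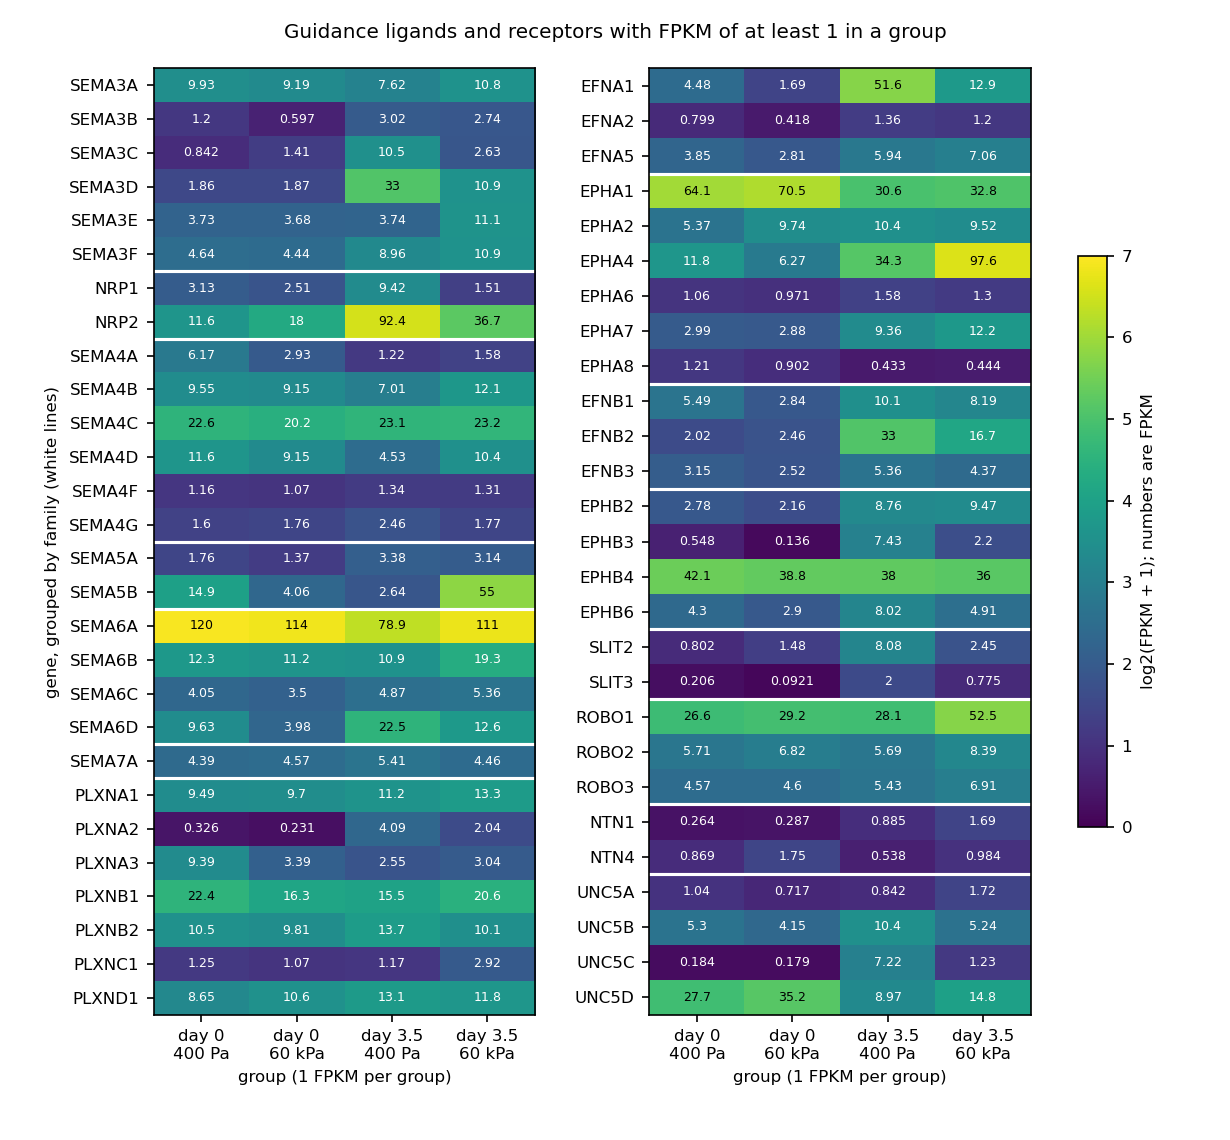
Heatmap of the 55 members with FPKM of at least 1 in a group. Columns are the 4 groups, rows are genes by family, colour is log2(FPKM + 1) and the printed number is the FPKM. SEMA6A is bright in all 4 columns, from 78.9 to 120.3 FPKM, and NRP2, EFNA1, SEMA3D and EFNB2 are brightest on 400 Pa at day 3.5.

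Library-wide values frame these results. The tables list 33575 loci at day 0 and 34690 at day 3.5. The median change between gels over all tested genes was 0.02 log2 units on both days (a change is the soft value over the stiff value, as log2 after adding 1 to each FPKM, so it is positive where the soft gel is higher). All 8 pluripotency markers checked were present, with a summed FPKM of 1446 and 1500.4 at day 0 and 415 and 695 at day 3.5, on 400 Pa and 60 kPa. Of 10 primitive streak and mesoderm markers, 9 matched, with sums of 2.39 and 1.59 FPKM at day 0 and 246 and 53.1 at day 3.5. The labelled mesoderm progenitors thus carry both sets of markers, on both gels.

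Among the ligands of neuropilins, SEMA3C and SEMA3D were called at day 3.5. SEMA3C, a secreted semaphorin of the cardiac outflow tract, had 0.842 (soft) and 1.41 (stiff) FPKM at day 0, then 10.5 and 2.63 after induction. SEMA3D had 1.86 (soft) and 1.87 (stiff) FPKM at day 0, then 33.0 and 10.9 after induction. For both genes the soft gel at day 3.5 held the highest of the 4 values, and the day 0 values were low on both gels. At day 3.5 the change of SEMA3C was 1.66, with q = 0.0231 in the authors' deposited table. That of SEMA3D was 1.52, with q = 0.0346 in the authors' deposited table. The standard errors (SE) were 1.01 and 0.65 log2 units; an SE here is what the deposited statistic implies for its ratio, with no pseudocount added, and is approximate. A further SEMA3D row at the same locus was at 8.55 and 1.67 FPKM and was not called (p = 0.191 in the authors' deposited table).

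SEMA3C and SEMA3D share a stretch of chromosome 7 with SEMA3E and SEMA3A. In order, SEMA3C, SEMA3E, SEMA3A and SEMA3D lie within 4.44 Mb (hg19, chr7:80371854-84816348). Of the 4 neighbours, the outer pair was called. SEMA3E, a ligand that binds PLXND1 without a neuropilin, had 3.73 (soft) and 3.68 (stiff) FPKM at day 0, then 3.74 and 11.1 after induction. Its highest value was thus on the stiff gel, with a change of -1.35 at day 3.5 (SE 1.04, p = 0.0215 and q = 0.565 in the authors' deposited table), and it was not called. SEMA3A, the founding collapsin, had 9.93 (soft) and 9.19 (stiff) FPKM at day 0, then 7.62 and 10.8 after induction. Of the class 3 genes elsewhere, SEMA3F was at 8.96 and 10.9 FPKM at day 3.5 and SEMA3B at 3.02 and 2.74.

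Both neuropilins were more abundant on the soft gel at day 3.5, and 1 of them passed the test. NRP1, the main receptor for SEMA3A and a VEGF co-receptor, had 3.13 (soft) and 2.51 (stiff) FPKM at day 0, then 9.42 and 1.51 after induction. Its day 3.5 change was 2.06, with q = 0.00783 in the authors' deposited table and an SE of 1.25. EFNA1, UNC5C and SEMA5B have the same q at day 3.5, so q does not rank these genes. The deposited statistic (stiff over soft) was -2.12 for NRP1, beside -3.43 for EFNA1. NRP2, which prefers SEMA3F and VEGF-C, had 11.6 (soft) and 18.02 (stiff) FPKM at day 0, then 92.4 and 36.7 after induction. NRP2 was the more abundant neuropilin in each group. Its day 3.5 change of 1.31 was not called (p = 0.209 in the authors' deposited table), and its SE was 2.44. The NRP1 gene overlaps a gene on the opposite strand and a small RNA gene in GENCODE 29, and the strand setting of the counting is unknown here. Opposite-strand genes also overlap EFNB2, EPHA4, SEMA3D, SEMA3E, SEMA4D, SEMA6D and UNC5B, and their reads cannot be told apart.

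The plexins, which carry the signal into the cell, had no call on either day. PLXNB1, the receptor for SEMA4D, was the highest, with 22.4 (soft) and 16.3 (stiff) FPKM at day 0, then 15.5 and 20.6 after induction (change -0.39, SE 1.22, p = 0.373 in the authors' deposited table at day 3.5). PLXNA1 lay between 9.49 and 13.3 FPKM and PLXND1 between 8.65 and 13.1 over the 4 groups. PLXNA2 had 0.326 (soft) and 0.231 (stiff) FPKM at day 0, then 4.09 and 2.04 after induction, whereas PLXNA3 was at 9.39 and 3.39 and then at 2.55 and 3.04. PLXNA3 had a change of 1.24 at day 0 that was not called (p = 0.173 in the authors' deposited table). PLXNC1, the receptor of SEMA7A, had 1.25 (soft) and 1.07 (stiff) FPKM at day 0, then 1.17 and 2.92 after induction.

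SEMA5B was the member with the largest change between gels on each day. It encodes a membrane-spanning semaphorin with thrombospondin repeats. Before induction it had 14.9 FPKM on the soft gel and 4.06 on the stiff gel. After induction it had 2.64 FPKM on the soft gel and 55.0 on the stiff gel. The order of the gels was thus opposite on the 2 days, with the lowest and the highest of the 4 values both at day 3.5. The change was 1.65 at day 0 (SE 0.57, q = 0.039 in the authors' deposited table) and -3.94 at day 3.5 (SE 0.69, q = 0.00783 in the authors' deposited table). The difference between the days (day 3.5 minus day 0) was -6.25 log2 units with an SE of 0.90, with no pseudocount added. It was tested by a normal approximation from both deposited ratios and their implied errors, with Benjamini-Hochberg adjustment over 15316 genes. The deposited p is not the normal tail of the deposited statistic: for SEMA4D at day 3.5 a statistic of 0.68 goes with p = 0.0372 in the authors' deposited table, so the approximation is rough. At an adjusted threshold of 0.05 it passed for 1 of 47 members tested on both days, beside 0.0718% of all genes compared. The locus is chr3:122627930-122747452 (hg19), and no other gene overlaps SEMA5B on the opposite strand in GENCODE 29. Its relative SEMA5A had 1.76 (soft) and 1.37 (stiff) FPKM at day 0, then 3.38 and 3.14 after induction.

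**Figure D2:**
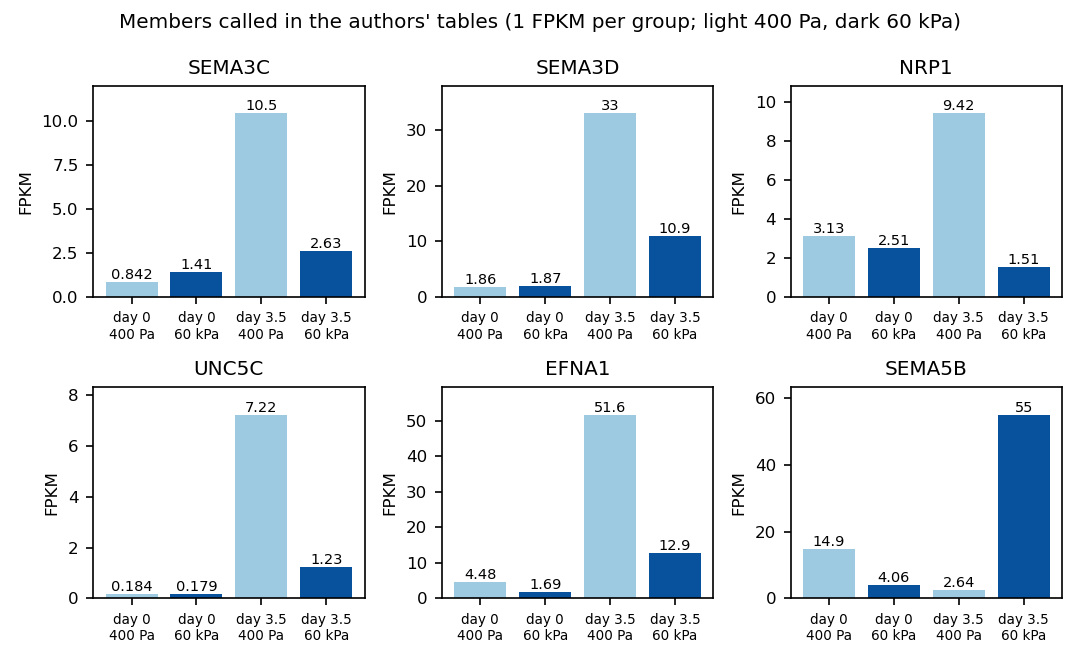
Bar charts of the FPKM of the 6 called members, with 1 bar per group (light 400 Pa, dark 60 kPa) and each axis starting at 0. In the first 5 genes the tallest bar is 400 Pa at day 3.5; in SEMA5B it is 60 kPa at day 3.5, at 55.0 FPKM.

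Summed markers of some other cell types also differed between the gels, and those of others differed little. The summed FPKM of 8 neuroectoderm markers was 191 (soft) and 113 (stiff) at day 0, then 115 and 348 at day 3.5. The order of the gels in this sum was thus opposite on the 2 days, as for SEMA5B. Unlike SEMA5B, none of the 4 markers tested at day 0 was called then. OTX2 (136 and 82.2 FPKM) and FEZF1 (36.4 and 22.9) made up most of the day 0 sum. PAX6 differed little at day 3.5 (17.2 and 19.6 FPKM), and SOX1 was at or below 0.0267 FPKM in all 4 groups. Of the 8 markers, LHX2 was listed at 0 on 400 Pa and SOX1 on 60 kPa at day 0. At day 0 an unadjusted p below 0.05 in the authors' deposited table was reached by 3 of 4 tested, all higher on 400 Pa. That side had 0.907% of all genes. The authors' deposited table called 4 of 7 tested in favour of 60 kPa at day 3.5, a side with 0.253% of all genes. The primitive streak and mesoderm markers were higher in sum on 400 Pa at day 3.5, as given above. They had 4 calls among 9 tested on that side in the authors' deposited table, a side with 1.08% of all genes. The sum rested mainly on HAND1, TBX3, MEIS1 and ISL1, at 42.4 to 62.4 FPKM on 400 Pa. Their changes were 2.95, 2.88, 2.86 and 2.22. TBX6, MIXL1 and EOMES differed little between the gels, with changes of 0.09, 0.22 and 0.28. MESP1 (0.68) and T (1.08) lay between. ISL1 is also among the 6 amnion and trophoblast markers. These 6 summed to 14.8 and 7.26 FPKM at day 0 and to 196 and 38.7 at day 3.5. The authors' deposited table called 1 of 2 tested higher on the soft gel at day 0 and 4 of 6 at day 3.5. Of the 8 pluripotency markers it called 1, PRDM14, higher on the stiff gel at day 3.5 (4.45 and 17.1 FPKM). The 6 matched of 8 endothelial markers summed to 22.0 and 24.9 FPKM at day 0 and 34.4 and 27.2 at day 3.5. Against the direction of that last sum, VWF, at 0.873 and 6.12 FPKM, was the 1 call among 5 tested in the authors' deposited table. The 6 neural crest markers lay between 7.43 and 8.74 FPKM in sum, and the 6 endoderm markers went from 2.29 and 2.21 to 25.1 and 35.4, with FOXA2 listed at 0 on 60 kPa at day 0. The part of these cell types in the changes of the guidance genes was not tested.

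The other membrane-bound semaphorins were not called on either day. SEMA6A, a ligand of PLXNA2 and PLXNA4, was the most abundant member in every group but the soft gel at day 3.5, where NRP2 was higher, with 120.3 (soft) and 114 (stiff) FPKM at day 0, then 78.9 and 111 after induction. Its day 3.5 change was -0.48, with an SE of 0.85 and p = 0.233 in the authors' deposited table. SEMA6B was at 10.9 and 19.3 FPKM at day 3.5 (change -0.77, SE 0.52, p = 0.0219 and q = 0.565 in the authors' deposited table). SEMA6D, a PLXNA1 ligand of the developing heart, was higher on the soft gel on both days, with 9.63 (soft) and 3.98 (stiff) FPKM at day 0, then 22.5 and 12.6 after induction. Its day 0 change was 1.09, with an SE of 0.97, p = 0.01 in the authors' deposited table and no call. In class 4, SEMA4C was the highest and lay between 20.2 and 23.2 FPKM in all 4 groups (day 3.5 change 0.00, SE 0.49, p = 0.998 in the authors' deposited table). SEMA4D had 11.6 (soft) and 9.15 (stiff) FPKM at day 0, then 4.53 and 10.4 after induction (change -1.05, SE 1.77, p = 0.0372 and q = 0.762 in the authors' deposited table for day 3.5). SEMA4A was at 6.17 and 2.93 FPKM at day 0 (change 0.87, SE 0.76, p = 0.0102 in the authors' deposited table) and at 1.22 and 1.58 at day 3.5. SEMA7A, the lipid-anchored member, lay between 4.39 and 5.41 FPKM (day 3.5 change 0.23, SE 0.96, p = 0.62 in the authors' deposited table).

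In the ephrin system the A ligand EFNA1 was called and no EPH receptor was. EFNA1, first found as a TNF-induced gene of endothelial cells, had 4.48 (soft) and 1.69 (stiff) FPKM at day 0, then 51.6 and 12.9 after induction. It was higher on the soft gel on both days. Its change was 1.03 at day 0 (SE 0.83, p = 0.0152 in the authors' deposited table, no call) and 1.92 at day 3.5 (SE 0.58, q = 0.00783 in the authors' deposited table). The gene lies at chr1:155099936-155107404 (hg19). EFNA5 had 3.85 (soft) and 2.81 (stiff) FPKM at day 0, then 5.94 and 7.06 after induction, and EFNA2 stayed at or under 1.36 FPKM.

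The 2 most abundant A receptors had different levels on the 2 days. EPHA1, which binds EFNA1, had 64.1 (soft) and 70.5 (stiff) FPKM at day 0, then 30.6 and 32.8 after induction. EPHA4, a receptor that binds ephrins of both types, had 11.8 (soft) and 6.27 (stiff) FPKM at day 0, then 34.3 and 97.6 after induction. The stiff gel at day 3.5 thus held the highest value of any EPH receptor. The change of EPHA4 was 0.82 at day 0 and -1.48 at day 3.5, where it was not called (SE 0.90, p = 0.00365 and q = 0.181 in the authors' deposited table). The difference between its changes on the 2 days was -2.42 with an SE of 1.32 and did not pass the same test. A further EPHA4 row at the same locus was at or below 0.766 FPKM. EPHA2 had 5.37 (soft) and 9.74 (stiff) FPKM at day 0, then 10.4 and 9.52 after induction. EPHA7 was at 2.99 and 2.88 FPKM and then at 9.36 and 12.2.

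B-type ephrins and their receptors had no call. EFNB2, the ephrin of arteries and somite boundaries, had 2.02 (soft) and 2.46 (stiff) FPKM at day 0, then 33.0 and 16.7 after induction. Its day 3.5 change was 0.94, with p = 0.0017 and q = 0.109 in the authors' deposited table and an SE of 0.43. EFNB1 was at 5.49 and 2.84 FPKM at day 0 (change 0.76, SE 0.48, p = 0.006 in the authors' deposited table, no call) and at 10.1 and 8.19 at day 3.5. EPHB4, the venous receptor of EFNB2, varied little, between 36.0 and 42.1 FPKM (day 3.5 change 0.08, SE 0.67, p = 0.853 in the authors' deposited table). EPHB3 had 0.548 (soft) and 0.136 (stiff) FPKM at day 0, then 7.43 and 2.20 after induction, and EPHB2 had 2.78 and 2.16, then 8.76 and 9.47. EPHB6, which lacks kinase activity, was at 8.02 and 4.91 FPKM at day 3.5.

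At day 3.5 SLIT2 and SLIT3 were higher on the soft gel and ROBO1, ROBO2 and ROBO3 on the stiff gel, without a call. SLIT2 had 0.802 (soft) and 1.48 (stiff) FPKM at day 0, then 8.08 and 2.45 after induction. Its change was 1.40, with p = 0.0069 and q = 0.277 in the authors' deposited table and an SE of 1.19. SLIT2 hosts a miRNA gene, MIR218-1, in GENCODE 29. SLIT3 reached 2.0002 FPKM (soft) and 0.775 (stiff) at day 3.5. ROBO1, the most abundant robo, had 26.6 (soft) and 29.2 (stiff) FPKM at day 0, then 28.1 and 52.5 after induction (change -0.88, SE 0.88, p = 0.102 in the authors' deposited table). ROBO2 was at 5.69 and 8.39 FPKM and ROBO3 at 5.43 and 6.91 at day 3.5 (p = 0.286 and p = 0.507 in the authors' deposited table).

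Of the netrin receptors, UNC5C was called at day 3.5. It is a repulsive netrin receptor, and had 0.184 (soft) and 0.179 (stiff) FPKM at day 0, then 7.22 and 1.23 after induction. The gene was thus near 0 on both gels before induction and highest on the soft gel after it. Its change was 1.88 (SE 0.79, q = 0.00783 in the authors' deposited table). It has 2 further rows at the same locus (chr4:96083655-96473608, hg19), at 2.56 and 0.624 FPKM and at 1.51 and 0.0972 FPKM at day 3.5, neither called in the authors' deposited table. The tables do not say what distinguishes the rows, and a gene on the opposite strand overlaps UNC5C in GENCODE 29. UNC5B, an UNC5 receptor of vessels, had 5.30 (soft) and 4.15 (stiff) FPKM at day 0, then 10.4 and 5.24 after induction (change 0.86, SE 0.50, p = 0.00605 and q = 0.252 in the authors' deposited table). UNC5D, the most abundant UNC5 receptor at day 0, was at 27.7 and 35.2 FPKM and then at 8.97 and 14.8. Its day 3.5 change was -0.66, with an SE of 5.83 and p = 0.774 in the authors' deposited table. The netrins themselves were low, NTN1 at 0.885 and 1.69 FPKM and NTN4 at 0.538 and 0.984 at day 3.5. NTN4 had 0.869 and 1.75 FPKM at day 0 (change -0.56, SE 1.38, p = 0.17 in the authors' deposited table).

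All 6 members called at day 3.5 were above 1 FPKM on both gels that day. At an unadjusted p below 0.05 in the authors' deposited table, 8 members were higher on 400 Pa and 5 on 60 kPa (15.1% and 9.43%), beside 3.79% and 2.14% of all genes. The median change of the tested members was 0.02, with 27 above 0 and 26 below. Calls thus fell on both sides, and the members' median equalled that of all genes to 2 decimals. The median SE of the tested members was 1.02, about the size of a fold of 2.

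**Figure D3:**
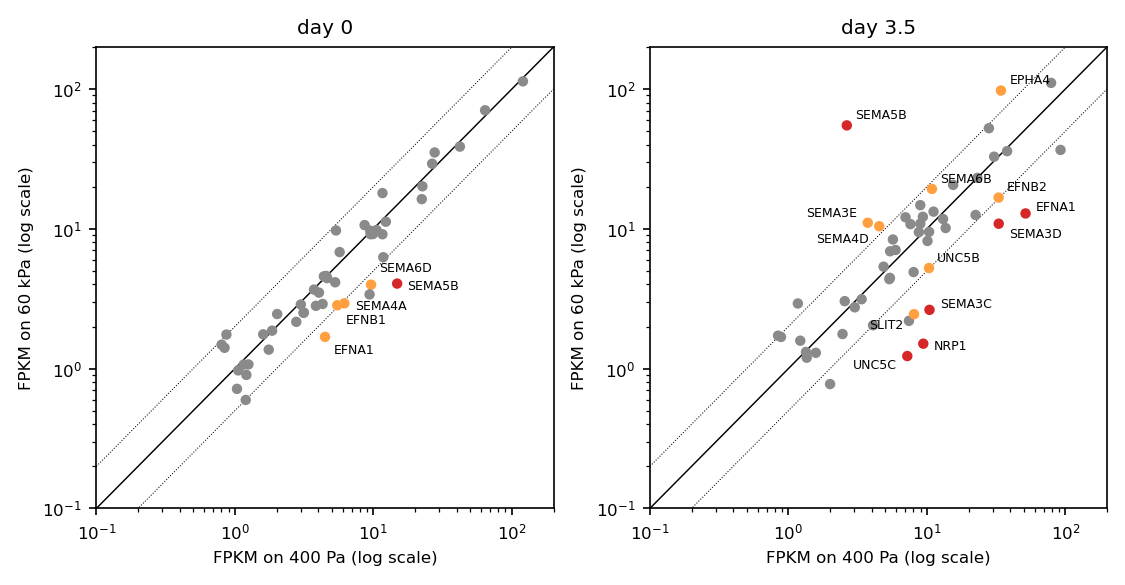
FPKM on 400 Pa (x, log scale) against FPKM on 60 kPa (y, log scale) for members with at least 1 FPKM on a gel, at day 0 and day 3.5. The solid line is equality and dotted lines are a fold of 2. Red points were called at q below 0.05 in the authors' deposited tables, orange points had p below 0.05 only. SEMA5B crosses the line between the panels.

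Before induction the members with the smallest p-values all lay on the soft side. At an unadjusted p below 0.05 in the authors' deposited table, 5 members (10.2%) were higher on 400 Pa and 0 on 60 kPa, beside 0.907% and 0.953% of all genes. Those 5 were EFNA1, EFNB1, SEMA4A, SEMA5B and SEMA6D. The median change of the tested members was 0.10, with 33 above 0 and 16 below, while 53.9% of all genes tested lay above 0. The median SE was 0.865. Except for EFNA1 and SEMA5B, no member with p below 0.05 at day 0 had one at day 3.5.

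**Figure D4:**
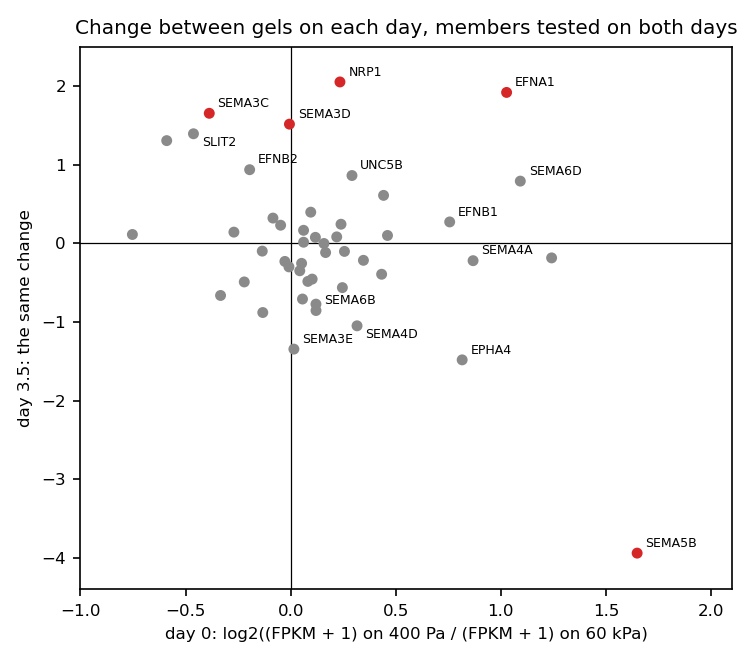
Change between gels at day 0 (x) and day 3.5 (y), both as log2 of soft over stiff after adding 1 to each FPKM, for the 47 members tested on both days. Red points were called on a day. EFNA1 is the called member with changes above 0.5 on both axes (1.03 and 1.92), and SEMA5B lies alone at 1.65 and -3.94.

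Levels before and after induction were set side by side without a test, since the tables of the days were made separately. On 400 Pa, 15 of 53 members at 1 FPKM or more on a day were past a fold of 2 upwards at day 3.5 (28.3%) and 6 downwards (11.3%), beside 9.33% and 7.62% of all genes. On 60 kPa, 16 of 53 were past it upwards (30.2%) and 2 downwards (3.77%), beside 7.01% and 5.07%. A member that was under 1 FPKM at day 0, such as UNC5C, PLXNA2 or EPHB3, enters these counts only by being higher at day 3.5. Past the fold upwards on both gels were EFNA1, EFNB2, EPHA4, EPHA7, EPHB2, EPHB3, PLXNA2, SEMA3D and SEMA6D. NRP1, NRP2, SEMA3C, SLIT2, SLIT3 and UNC5C were past it on 400 Pa, and their log2 changes on 60 kPa ranged from -0.48 (NRP1) to 0.99 (NRP2). Conversely EFNA5, EFNB1, NTN1, SEMA3B, SEMA3E, SEMA3F and SEMA5B were past it on 60 kPa. EPHA1 and UNC5D were past it downwards on both gels. Whether the gels differed in these day-to-day contrasts was tested for the 47 members above, where SEMA5B passed.

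Summed by family, the FPKM of neuropilins went from 14.8 and 20.5 at day 0 to 101.8 and 38.2 at day 3.5 on 400 Pa and 60 kPa. That of A-type ephrins went from 9.13 and 4.92 to 58.9 and 21.1, and that of B-type ephrins from 10.7 and 7.81 to 48.4 and 29.3. Both ephrin families thus had their highest sum on the soft gel after induction. EPHA receptors went from 86.9 and 91.7 to 87.1 and 155, of which EPHA4 alone was 97.6 FPKM on 60 kPa. The plexins stayed between 51.5 and 64.1. In these sums the most abundant members of a family weigh most.

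Of 52 co-receptors, other cues and intracellular effectors of the same pathways, 49 matched and 44 were tested at day 3.5. None was called in the authors' deposited table on either day. At an unadjusted p below 0.05 there, 4 were higher on the stiff gel and 0 on the soft gel at day 3.5, beside 2.14% and 3.79% of all genes. At day 0 none of 42 tested passed it either way, beside 0.907% and 0.953% of all genes. The 4 were RGMA, a repulsive cue that binds neogenin and BMPs, RND1, a GTPase that binds plexins, and the collapsin response mediators DPYSL3 and DPYSL5. RGMA was at 4.14 and 11.7 FPKM at day 3.5 (change -1.30, q = 0.102 in the authors' deposited table), and DPYSL3 at 64.9 and 131 (change -1.004, q = 0.097 in the authors' deposited table). DPYSL5 was at 8.03 and 18.6 FPKM and RND1 at 1.32 and 3.84. The median change over the tested genes of the list was 0.02, as over all genes.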

How the data were processed

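Libraries were made from total RNA recovered with TRIzol, per the labels' protocols. The deposited files hold 1 table per day in the layout of Cuffdiff. FPKM values, 1 per group, were made by the authors with Cufflinks on hg19, per the submitters' processing notes; the sources used here do not give versions, aligner, annotation or strand setting. Per the file headers, the authors deposited beside each pair of FPKM values a log2 ratio (stiff over soft), the score of their test (its statistic), a p-value and a q-value.

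The 62 members were found by symbol, and rows of the 2 tables were joined by locus identifier. A fit over single libraries had been planned in case their values were deposited; with 1 value per group, calls are those of the authors at q below 0.05, over genes tested by them with FPKM of at least 1 on a gel. Changes use a pseudocount of 1, which understates low genes. The difference between days was tested in 1 normal approximation over all genes with Benjamini-Hochberg adjustment. Change, SE and p or q are given, for the day concerned, for members called or with p below 0.05 on a day and for the most abundant of each family. The members and lists were chosen with earlier results of these data known. Alternatives were other pseudocounts (0.1 and 0.5), FPKM minimums (none and 5), thresholds (0.01 and 0.1), a fold minimum, a new adjustment and centring on the median. Locus coordinates are those of the authors' tables, written 1-based. Tables were handled in pandas 2.3.3 and numpy 2.4.6 under Python 3.11.15, tests in scipy 1.17.1, and plots in matplotlib 3.10.9.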

Additional observations from a re-analysis of the deposited data

Results flagged for a closer look

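SEMA5B stood out because its change between gels differed between the days by a test of the difference itself. The difference was -6.25 log2 units (day 3.5 minus day 0, soft over stiff, SE 0.90), and passed an adjusted threshold of 0.05 by the normal approximation over 15316 genes, whose errors are implied and approximate. Its FPKM was 14.9 and 4.06 on 400 Pa and 60 kPa at day 0, and 2.64 and 55.0 at day 3.5. The cause was not tested.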

How the results depend on the processing

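The count of called members kept its size, 1 at day 0 and 6 at day 3.5, without an FPKM minimum, with a minimum of 5, at q below 0.1, with a new adjustment, with a minimum fold of 2 and when every row of a symbol was counted (the last chosen after seeing the data). At q below 0.01 the count was 0 at day 0 and 4 at day 3.5, where SEMA3C and SEMA3D were the members lost. SEMA5B had p = 5e-05 in the authors' deposited table on both days, with q = 0.039 at day 0 and 0.00783 at day 3.5. No member had a smaller p, so the loss of SEMA5B at 0.01 does not reflect a larger p at day 0. At an unadjusted p below 0.05 the counts were 5 and 13. SEMA5B passed the test between days in both alternatives run. A fold of 4 in place of 2 between days left 9 members on 400 Pa and 5 on 60 kPa, against 21 and 18; pseudocounts of 0.1 and 0.5 gave 23 and 22 on 400 Pa and 24 and 21 on 60 kPa. Of 144 recomputed changes of named members, 143 kept their direction, but another pseudocount cannot reverse a direction. Only centring on the median gene, run for each of the 48 changes, could do so. With it SEMA3E at day 0 became -0.0093. No paired analysis was possible because each group has 1 value, so the replicate block and leaving out each replicate were not run. Depth is unknown, and the implied errors are an approximation.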
